A study of Rattus norvegicus with 4 samples.

Results

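The opioid, tachykinin and CGRP signalling genes were followed in rat vestibular ganglion neurons, as 10 genes for peptide precursors and their receptors (Penk, Pdyn, Oprm1, Oprd1, Oprk1, Tac1, Tacr1, Calca, Calcb and Calcrl). Members were taken by symbol, as every probe of the array whose platform annotation gave 1 symbol and that symbol was a listed gene. Of the 10 genes, 9 had a probe and 8 could be read, through 11 of the 35126 probes in the table, out of 11032 named genes read in all. Calcrl had no probe among the named ones and Oprm1 was left out of the member counts because of its place on the array, described below. The cells were collected by laser capture after staining for calretinin, which buffers calcium in neurons, and RNA from pools of captured cells was hybridised to 1-colour (Cy5) arrays. The design text takes stained neurons to be calyx afferents, whose cup-shaped endings wrap a hair cell, and unstained ones to be afferents with bouton or mixed endings. There were 2 arrays titled calretinin_positive and 2 titled calretinin_negative, and the labels used here do not give the strain, age or number of rats, any treatment, or whether the arrays of a group came from separate pools. The sample descriptions call all 4 arrays positive, against 2 of the titles, so a group is named here as the libraries labelled positive, or those labelled negative. Because the samples are pools of captured tissue, fewer cells of a type and less RNA per cell cannot be told apart.

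Opioid, tachykinin and CGRP peptides are cut from larger precursors, packed into dense-core granules and released beside classical transmitters, and they act on receptors that couple to G proteins. Enkephalins from Penk act mainly on the delta and mu receptors, dynorphins from Pdyn on the kappa receptor, substance P from Tac1 on the receptor of Tacr1, and CGRP from Calca or Calcb on the receptor of Calcrl with its partner Ramp1. In the vestibular periphery, CGRP and enkephalin are known from the cholinergic efferent fibres that run from the brainstem to the hair cells and afferent endings, and substance P from part of the afferent neurons. The series title names the interaction of efferents and afferents as the question.

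The numbers of the probes give the row and column of the array, and bright control features sit in a regular grid at fixed columns of some rows. Such features were found in 16 rows. In the 7 rows up to row 124, where they read 78.1 to 136.3, 222 of the 223 grid positions present in the table were bright on every array at their own position. In the 8 rows from row 165 to row 328, 0 of the 146 grid positions in the table were bright at their own position, and 253 of 254 were bright when read 5 array positions later. Row 164 holds the turn, with 15 features bright at their own position up to column 50 and 17 bright 5 positions later from column 61 on. Names of the early part were therefore read at their own position and names of the late part 5 positions later. As a second check, the log2 differences of early and late probes of 1 gene correlated at r = 0.418 over 851 pairs with this reading, and at r = 0.051 over 661 pairs with the late names at their own positions (pairs in which both probes were above an intensity of 1, across probes that share the 4 arrays). The probes of Penk, Oprd1, Tacr1, Calca and the first of 3 probes of Oprk1 lie in the early part. Those of Tac1, Calcb, Pdyn and the other probes of Oprk1 lie in the late part, between grid rows where the move of 5 positions was seen.

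**Figure D1:**
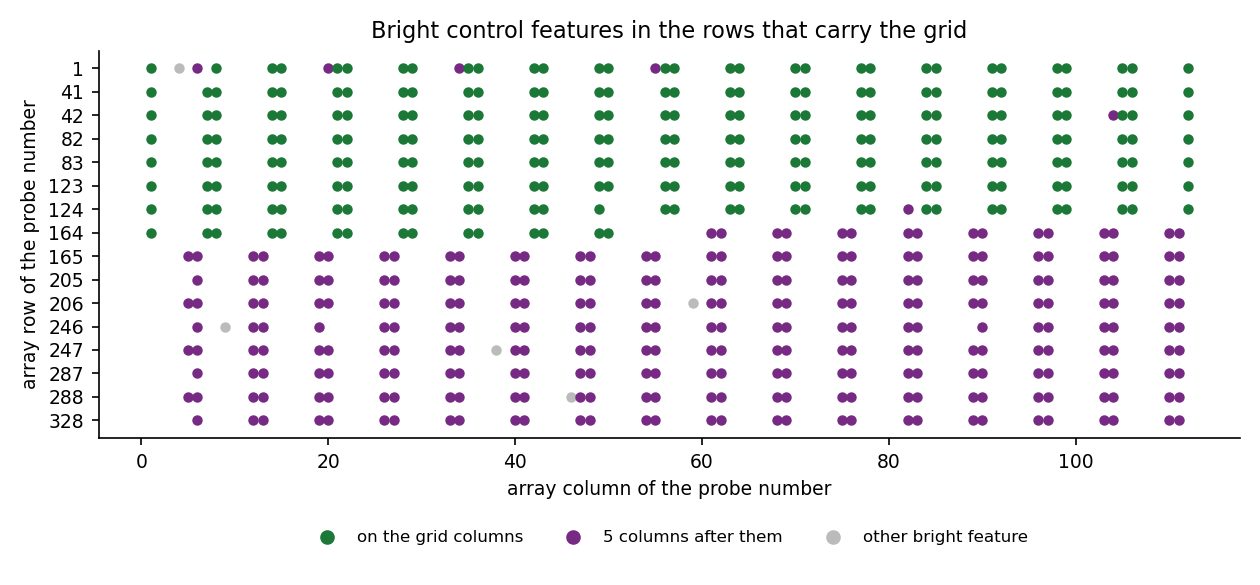
Column (x) and row (y) on the array, as the probe numbers give them, of features bright on all 4 arrays in the 16 rows that carry the control grid. Green points lie on the grid columns, purple points 5 columns after them and grey points elsewhere, with the change from green to purple inside row 164.

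The enkephalin precursor gene was the member with the largest difference. Penk had intensities of 0.455 and 0.657 in the libraries labelled positive and of 5.09 and 5.56 in those labelled negative. The groups did not overlap, and 1 of the positive arrays lay just below 0.456, the limit under which a probe counts as dim (the 40th percentile of the mean log2 values). Penk was 9.73-fold lower in the libraries labelled positive, a log2 difference of -3.28 ± 0.16 (SE, 95% confidence interval -3.64 to -2.93, adjusted p = 1.89e-07, limma with Benjamini-Hochberg adjustment over 21070 probes). Of all tested probes, 0.992% differed by as much or more in either direction. Among the 3424 probes within 0.5 of its mean log2 level, the 5th percentile of the log2 difference was -1.53. With a pseudocount of 1, which shrinks differences of dim probes, the log2 difference was -2.025.

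The dynorphin precursor gene and the opioid receptor genes were dim in both groups and are given by level, with no fold. Pdyn had 0.0598 and 0.0820 in the libraries labelled positive and 0.223 and 0.0814 in those labelled negative, and the groups overlapped. Oprd1, the delta receptor gene, had 0.269 and 0.169 against 0.326 and 0.364. Oprd1 did not overlap between groups but stayed under the dim limit on every array. Oprk1, the kappa receptor gene, has 3 probes. The first read 0.227 and 0.0879 against 0.0351 and 0.169, and the second 0.171 and -0.0211 against 0.0897 and 0.203. The third read 0.362 and 0.453 against 0.0837 and 0.0543, so its groups stood apart below the dim limit while those of the other probes overlapped. The probe of Oprm1, the mu receptor gene, lies between the parts and after the turn in the control grid. Read 5 positions later, a reading chosen after its values were seen, it was dim too, with 0.179 and 0.139 against 0.0810 and 0.0810. At its own position the table lists 4.11 and 4.30 against 2.89 and 2.80. Read as the control grid places them, the opioid receptor genes and Pdyn were dim on all 4 arrays, and Penk was the one opioid member above the limit.

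**Figure D2:**
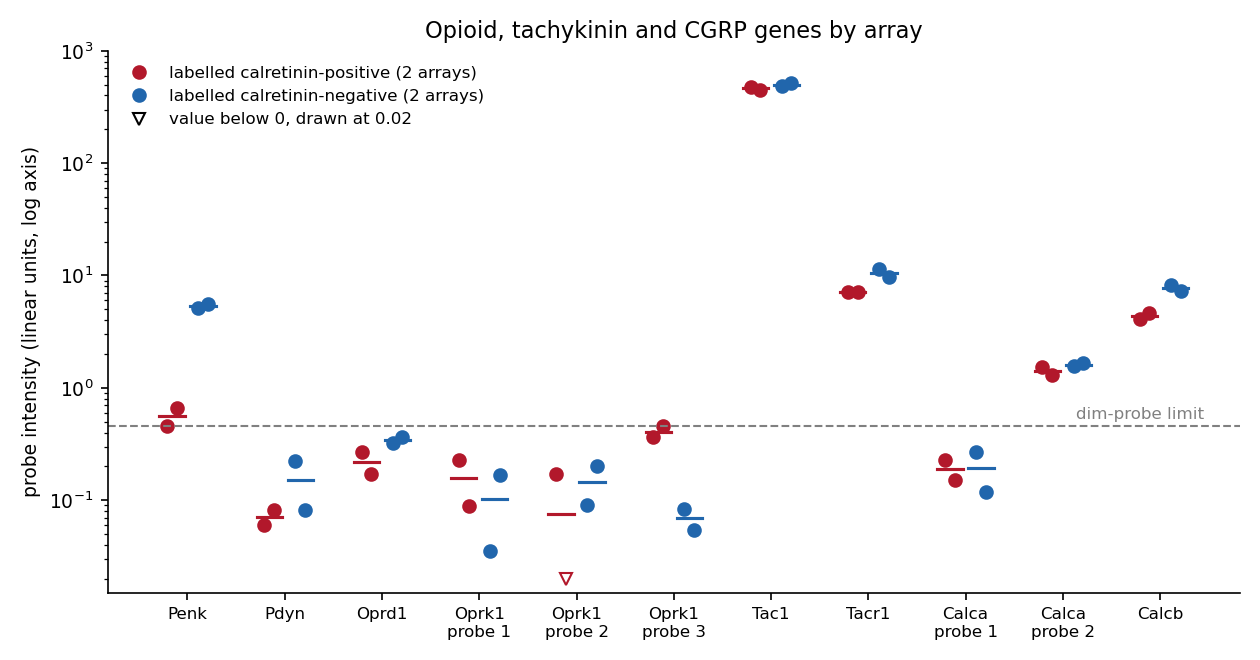
Intensity of each member probe (log axis) on the 2 arrays labelled calretinin-positive (red) and the 2 labelled calretinin-negative (blue), with bars at the group means and a dashed line at the dim-probe limit of 0.456. Tac1 lies near the top of the scale in both groups, Penk crosses from the limit to about 5, and Pdyn, Oprd1, Oprk1 and the first probe of Calca lie below the limit.

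The substance P precursor gene gave one of the strongest signals of the arrays. Tac1 had 478 and 448 in the libraries labelled positive and 482 and 511 in those labelled negative, between percentile 99.93 and percentile 99.97 of each array, whose highest values were 640.5 to 698.5. The arrays labelled positive both lay below those labelled negative, by little: the log2 difference was -0.10 ± 0.08 (SE, 95% confidence interval -0.28 to 0.08, adjusted p = 0.30, limma with Benjamini-Hochberg adjustment), which did not pass the threshold. After quantile normalization it was -0.27 (adjusted p = 0.0106, limma, Benjamini-Hochberg) and after cyclic loess -0.42 (adjusted p = 0.00114, limma, Benjamini-Hochberg), and both passed. The 41 probes within 0.5 of its mean log2 level had a median log2 difference of 0.18 before such normalization. A probe's strength also depends on its sequence, and saturation flags were not used here, so the level is a description of this probe.

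Tacr1, the substance P receptor gene, had 7.06 and 7.06 in the libraries labelled positive against 11.4 and 9.68 in those labelled negative. Both positive arrays lay below both negative ones. It fell 1.49-fold, a log2 difference of -0.57 ± 0.08 (SE, 95% confidence interval -0.76 to -0.38, adjusted p = 0.000237, limma, Benjamini-Hochberg). When the spread was estimated for this probe alone, from the 4 arrays, the call was lost (ordinary t-test, Benjamini-Hochberg adjusted p = 0.0806). The ligand gene was therefore near the top of the intensity range in both groups, while the receptor gene was higher in the libraries labelled negative.

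Calca and Calcb, neighbouring genes on chromosome 1, encode the alpha and beta forms of CGRP. Calca also gives rise to calcitonin by alternative splicing, and the platform annotation does not say which transcript a probe reads. The first probe of Calca was dim, with 0.229 and 0.152 in the libraries labelled positive and 0.266 and 0.119 in those labelled negative. The second probe had 1.54 and 1.30 against 1.55 and 1.65, a log2 difference of -0.18 ± 0.12 (SE, 95% confidence interval -0.44 to 0.09, adjusted p = 0.214, limma, Benjamini-Hochberg). Without 1 array at a time the difference ranged from -0.30 to -0.056. The probes thus disagreed on whether the transcript was above the dim limit, and the brighter one did not pass. Calcb had 4.12 and 4.64 against 8.29 and 7.22, with no overlap between the groups. It fell 1.77-fold in the libraries labelled positive, a log2 difference of -0.82 ± 0.09 (SE, 95% confidence interval -1.03 to -0.62, adjusted p = 3.44e-05, limma, Benjamini-Hochberg). With the spread of this probe alone it did not pass (adjusted p = 0.0615, ordinary t-test, Benjamini-Hochberg).

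Of the 8 members read, 5 were tested (Penk, Tac1, Tacr1, Calca through its brighter probe, and Calcb). The other 3, Pdyn, Oprd1 and Oprk1, did not pass the filter on dim probes. Of the 5, 3 were called lower in the libraries labelled positive, where 23.6% of all tested probes were, and 0 were called higher, where 40.6% of all tested probes were. At an unadjusted p under 0.05 in limma 0 were higher as well, and with the spread estimated probe by probe 0 were higher and 1, Penk, was lower. With that spread 7082 of all 21070 tested probes were called, 63.4% of them higher, so the count says little about the members. Every array labelled positive lay below every array labelled negative for Penk, Tacr1, Calcb and Tac1 and for the brighter probe of Calca, while groups that do not overlap with the positive arrays below were found at 31.9% of all tested probes and the reverse order at 49.8%, together 81.7%. The median log2 difference was -0.57 over the 5 members and 0.11 over all tested probes. Penk alone of the 5 was called with a difference of at least 2-fold, as were 7.07% of tested probes in that direction and 8.28% in the other.

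**Figure D3:**
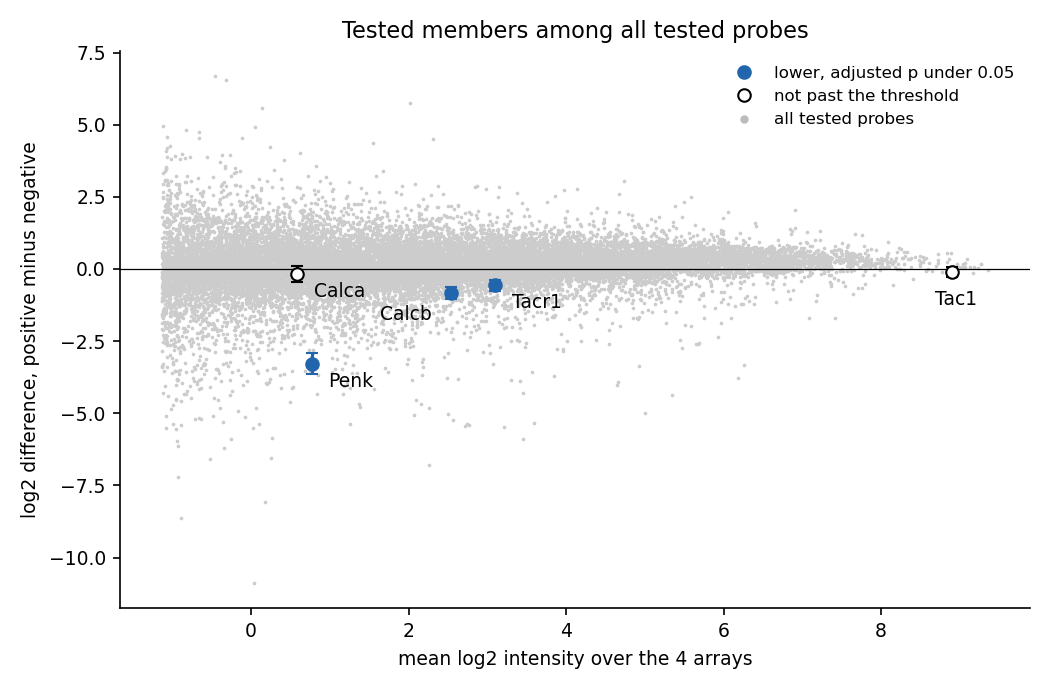
Log2 difference between the groups (y, positive minus negative) against the mean log2 intensity (x) for the 21070 tested probes (grey) and the 5 tested members, with 95% confidence intervals. Penk lies at -3.28, Calcb and Tacr1 lie between -1 and 0 with intervals below 0, and the intervals of Calca and Tac1 include 0.

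The named genes most like Penk over the 4 arrays, by the root-mean-square difference of log2 values centred on each probe's mean, were Gpr149 (0.0354), Prex2 (0.0754) and Slc30a3 (0.110), out of 8182 tested genes. Gpr149, which encodes an orphan G protein-coupled receptor, had 0.215 and 0.292 in the libraries labelled positive against 2.30 and 2.60. Prex2, a Rac exchange factor gene, had 0.127 and 0.211 against 1.49 and 1.61, and Slc30a3, a vesicular zinc transporter gene, 0.301 and 0.369 against 2.74 and 3.27. All 3 were dim in the libraries labelled positive and above the limit in those labelled negative. With 2 arrays in each group this likeness rests mostly on the size of the difference.

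For 7 of the 10 members the RefSeq promoter table (GRCr8) holds a sequence. The 250 bases before the annotated start are printed for Tac1, whose probe was among the strongest, for Tacr1, the receptor gene that fell, and for Calca, which shares an element with Tac1. Capitals mark matches to 4 motifs, each searched on both strands. The first was TGCGTCA, which resembles the cyclic AMP response element, and the second the short form of that element, TGACG. The third was the E-box motif CACGTG and the last the TATA box, searched as TATAAA. The reverse complement of the first motif contains the second, so each match of the first is also a match of the second.
Tac1, chr4:36645333-36645582, plus strand: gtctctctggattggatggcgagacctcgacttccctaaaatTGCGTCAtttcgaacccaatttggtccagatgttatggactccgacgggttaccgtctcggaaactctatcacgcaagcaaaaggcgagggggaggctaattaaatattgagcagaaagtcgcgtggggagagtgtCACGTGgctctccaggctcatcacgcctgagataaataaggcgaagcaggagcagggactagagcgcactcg
Tacr1, chr4:116478367-116478616, plus strand: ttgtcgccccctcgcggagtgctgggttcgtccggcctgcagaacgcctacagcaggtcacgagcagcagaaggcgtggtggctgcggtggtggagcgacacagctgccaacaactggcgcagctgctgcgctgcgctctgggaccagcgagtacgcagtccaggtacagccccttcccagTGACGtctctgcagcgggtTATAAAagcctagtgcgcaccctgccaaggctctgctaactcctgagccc
Calca, chr1:178317530-178317779, minus strand: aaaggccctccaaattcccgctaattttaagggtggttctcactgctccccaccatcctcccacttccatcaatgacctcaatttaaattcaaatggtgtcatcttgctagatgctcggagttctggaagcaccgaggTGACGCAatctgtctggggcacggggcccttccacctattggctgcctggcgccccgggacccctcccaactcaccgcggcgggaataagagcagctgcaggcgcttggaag
TGCGTCA was found in Tac1 at positions -208 to -202 from the start, on the printed strand, and in Calca at -112 to -106, on the other strand. It occurs in 1.66% of the 33469 promoters of the table at this length. TGACG was found in Tacr1 at -69 to -65 and occurs in 18.2% of promoters. Tac1 also holds CACGTG at -72 to -67 (5.59% of promoters) and Tacr1 holds TATAAA at -50 to -45 (12.9%). Members with these letters were found among those that passed and those that did not, and a match is a description of the letters, not a bound site.

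Genes around the members were taken from lists chosen with earlier results of these arrays known, and the brightest probe stood for each gene. Among 7 other precursor genes of the same families, 5 were read and 3 of these did not pass the filter on the mean level. Of the 3, Tac4 was below the dim limit on every array, Iapp on 3 of 4, and Pnoc only on the arrays labelled positive. Tac3, the neurokinin B precursor gene, had 0.725 and 0.654 against 0.768 and 0.880 (adjusted p = 0.236, limma, Benjamini-Hochberg), and Adm2, the gene of a peptide that acts on CGRP-type receptors, had 0.822 and 0.770 against 0.769 and 0.876 (adjusted p = 0.830). Of 8 receptor and partner genes 5 were tested, with 1 called higher and 0 lower, beside 40.6% and 23.6% over all tested probes. The one called, Crcp, encodes a protein first described as a CGRP receptor component that is also a subunit of RNA polymerase III. Crcp had 54.8 and 51.5 against 32.2 and 30.6, a log2 difference of 0.76 ± 0.07 (SE, adjusted p = 1.04e-05, limma, Benjamini-Hochberg). Tacr2, the neurokinin A receptor gene, had 5.97 and 5.90 against 5.59 and 5.05 (adjusted p = 0.0907), and Calcr, the calcitonin receptor gene, 0.825 and 0.887 against 1.09 and 1.0 (adjusted p = 0.104). Ramp1, which Calcrl needs to bind CGRP, did not pass the filter on the mean level, with 0.565 and 0.282 against 0.430 and 0.372, above the dim limit on 1 array. Ramp2, a partner that turns Calcrl into an adrenomedullin receptor, had 9.69 and 8.90 against 8.71 and 9.67, and its groups overlapped.

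Of 12 tested genes for peptide processing, granules and degradation, 6 rose and 3 fell in the libraries labelled positive, beside 40.6% higher and 23.6% lower over all tested probes. These shares are near each other, so the count says little about the list. It became 2 higher and 3 lower after quantile normalization and 2 higher and 4 lower after loess. Over all tested probes, 53.5% of the calls were then higher after quantile normalization and 49.6% after loess. Mme encodes neprilysin, the membrane peptidase that cuts enkephalins and substance P. It had 5.54 and 5.99 against 12.2 and 11.7, a log2 difference of -1.05 ± 0.07 (SE, adjusted p = 1.54e-06, limma, Benjamini-Hochberg). Anpep, the gene of aminopeptidase N, which also trims enkephalins, went the other way, with 20.1 and 21.3 against 11.5 and 11.5 (log2 difference 0.84, adjusted p = 3.91e-06). The granule protein gene Scg2 fell, with 2.21 and 2.37 against 3.26 and 3.60 (log2 difference -0.58, adjusted p = 0.000250). Other granule genes went the other way. Before further normalization, the brighter Scg5, Chga and Chgb rose, with log2 differences of 0.26, 0.23 and 0.21. Scg3 was dim on every array.

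Of 14 tested genes for G proteins, receptor kinases, regulators and the potassium channels they act on, 10 rose and 1 fell, beside the same 40.6% and 23.6% over all tested probes. Those shares belong to the values without further normalization. After quantile normalization 8 were higher and 1 lower, where 13007 of all 21070 tested probes were called, 53.5% of them higher. After loess 7 were higher and 2 lower, where 13469 of all tested probes were called, 49.6% of them higher. Rgs9, a regulator that speeds the turn-off of G proteins, had 13.1 and 12.5 against 5.22 and 5.40 (log2 difference 1.27, adjusted p = 3.26e-07, limma, Benjamini-Hochberg). Gna11, a G protein subunit gene of the kind that substance P receptors couple to, had 2.84 and 3.10 against 1.10 and 0.986 (log2 difference 1.51, adjusted p = 1.67e-06). Grk6, a receptor kinase gene, had 17.1 and 15.9 against 10.1 and 9.87 (log2 difference 0.73, adjusted p = 1.30e-05). Grk5, another receptor kinase gene counted as higher, had 1.41 and 1.02 against 0.229 and 0.384. It was dim in the libraries labelled negative and passed the filter on the mean level only through those labelled positive. The median log2 difference was 0.46 in this list, against -0.57 over the members.

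Among 14 other neuropeptide genes read, 4 passed the filter on the mean level. Of these 4, 1 rose and 1 fell, beside 40.6% higher and 23.6% lower over all tested probes. Of the 10 that did not pass, 8 were below the dim limit on every array, while Npy and Nppc were below it only on the arrays labelled positive. The somatostatin precursor gene Sst had 0.586 and 0.522 in the libraries labelled positive against 1.71 and 1.82, a log2 difference of -1.68 ± 0.14 (SE, adjusted p = 6.39e-06, limma, Benjamini-Hochberg). Nmu, the neuromedin U precursor gene, had 1.13 and 0.991 against 0.374 and 0.354 and was dim in the libraries labelled negative, so no fold is given. It is the gene counted as higher and passed the filter only through the libraries labelled positive. Adcyap1, the precursor gene of PACAP, had 7.29 and 7.72 against 7.13 and 6.63 (adjusted p = 0.157).

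**Figure D4:**
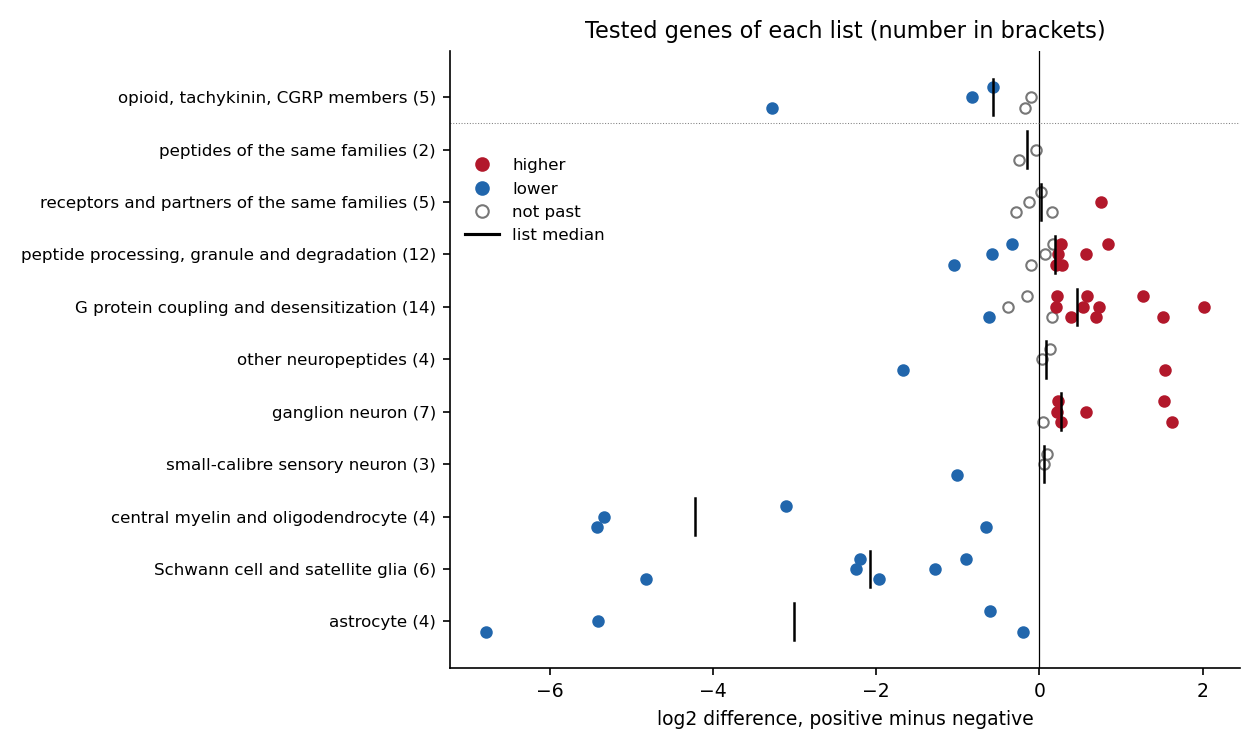
Log2 difference between the groups (x, positive minus negative) of each tested gene, by list, with the members in the top row, red for higher, blue for lower and open grey for not past an adjusted p of 0.05, and a black bar at each list's median. The 3 glial lists at the bottom lie to the left of 0 in every tested gene.

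Most of the tested markers of other cells were lower in the libraries labelled positive, and some were higher. The counts of each list stand beside 23.6% called lower and 40.6% called higher over all tested probes. Of the central myelin and oligodendrocyte list, 4 of 4 tested genes fell and 2 were dim. The summed intensity of the list was 10.7 to 13.1 in the libraries labelled positive and 141.6 to 147 in those labelled negative. Mog had 0.985 and 1.01 against 42.0 and 43.8, Mobp 1.79 and 2.01 against 75.7 and 77.5, and Mbp 1.56 and 1.54 against 13.4 and 13.4, all genes of myelin proteins. Of the astrocyte list 4 of 4 tested fell and 2 were dim, with sums of 249.7 to 276.9 against 435.2 to 455.5. The dim genes, below the limit on every array, were Slc1a2 and Gja1. Slc1a2 had 0.0632 and 0.0765 against 0.190 and 0.346, and Gja1 had 0.165 and 0.206 against 0.140 and 0.128. The water channel gene Aqp4 had 0.344 and 0.603 against 48.4 and 51.7. The log2 differences of Gfap and Aldoc, which encode an astrocyte filament and a glycolytic enzyme, were -5.41 and -0.60. Slc1a3 differed least, with 121 and 134 against 150 and 144 (log2 difference -0.20, adjusted p = 0.0414, limma, Benjamini-Hochberg). Aldoc and Slc1a3 made up most of each sum. Of the Schwann cell and satellite glia list 6 of 6 fell, with sums of 113 to 124 against 256 to 269, and the log2 differences were -4.82 for Lgi4, -2.20 for Egr2 and -1.96 for Ncmap. Of the endothelial and mural list 6 of 7 tested fell and 2 were dim, with sums of 26.6 to 27.3 against 79.9 to 84.0. The log2 differences were -2.26 for Vwf, -1.92 for Pecam1 and -1.48 for Tek. Among the hair cell markers 3 of 4 tested fell and 1 was dim, with sums of 9.62 to 10 against 15.7 to 16.3. Cdh23, a tip-link gene counted among those that fell, had 0.148 and 0.139 against 4.09 and 3.95. It was dim in the libraries labelled positive and passed the filter on the mean level only through those labelled negative. The log2 differences of Ush1c and Ocm were -0.41 and -0.54. Of the blood and immune list 3 fell, 1 rose and 1 was dim (sums 62.4 to 66.6 against 133 to 145). Its log2 differences were -1.34 for Alas2, -1.20 for Csf1r and 0.43 for Cd68. Of the fibroblast and meninges list 3 rose, 2 fell and 1 was dim (sums 207 to 210 against 129 to 137). Its log2 differences were 2.64 for Upk1b, 2.50 for Msln and 1.08 for Ogn. Msln had 2.42 and 2.61 against 0.463 and 0.428, so the libraries labelled negative lay at the dim limit, 1 of them below it. The fibroblast genes Dcn and Col1a1 fell, with log2 differences of -0.97 and -0.24, and Col1a2, at 0.05, did not pass. Most of these markers were lower in the same arrays in which Penk, Tacr1, Calcb, Mme and Sst were lower, and their part in those differences was not tested.

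Neuronal signal was present on all arrays, and the values do not show which captured cells it came from. Of 7 tested ganglion neuron markers 6 rose and 0 fell, beside 40.6% higher and 23.6% lower over all tested probes. The counts became 3 higher and 1 lower under quantile or loess normalization. Over all tested probes, 53.5% of the calls were then higher with quantile normalization and 49.6% with loess. The summed intensity of the list was 754.4 to 774.5 against 644 to 652. Snap25, also on the list, was dim on every array, with 0.0535 and 0.0746 against 0.0195 and 0.177. The log2 differences were 1.62 for Nefh, 1.53 for Slc17a7 and 0.58 for Nefm. Those of Stmn2, Uchl1 and Slc17a6 were smaller, at 0.26, 0.23 and 0.22, and Pvalb, at 0.04, did not pass. Of the small-calibre sensory neuron markers 1 of 3 tested fell, Prph (54.2 and 55.1 against 109 and 112), while the sodium channel genes Scn10a and Scn11a did not pass. Scn10a had 16.9 and 15.9 against 14.5 and 17.1, and Scn11a had 2.03 and 2.17 against 2.0 and 1.95, above the dim limit on every array. The other genes read from that list, Trpv1 and P2rx3, were below the limit on every array. The cholinergic markers of efferent neurons, Chat, Slc18a3 and Slc5a7, were dim on every array, with summed intensities of 0.151 to 0.333 and 0.237 to 0.239, so none of these 3 markers of efferent cell bodies was above the limit. Calb2, the calretinin gene, had 291 and 328 against 138 and 129, the direction of the titles, and was also well above the dim limit in the libraries labelled negative. That direction depends on the reading of late names, since at its own position the table lists 6.10 and 5.92 against 13.1 and 12.4, a log2 difference of -1.08.

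Over the whole array 64.2% of the tested probes passed (13530 of 21070), and 63.3% of the calls were higher, which became 53.5% with quantile and 49.6% with loess normalization as the median log2 difference moved from 0.11 to 0.01 and -0.01. The array medians lay between 0.9896 and 0.9916. Penk, Calcb and Tacr1 were lower under both normalizations. The number of arrays limits the precision, and since no label says that the arrays of a group came from separate animals or pools, p-values measure only how these arrays vary, which may be technical variation.

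**Figure D5:**
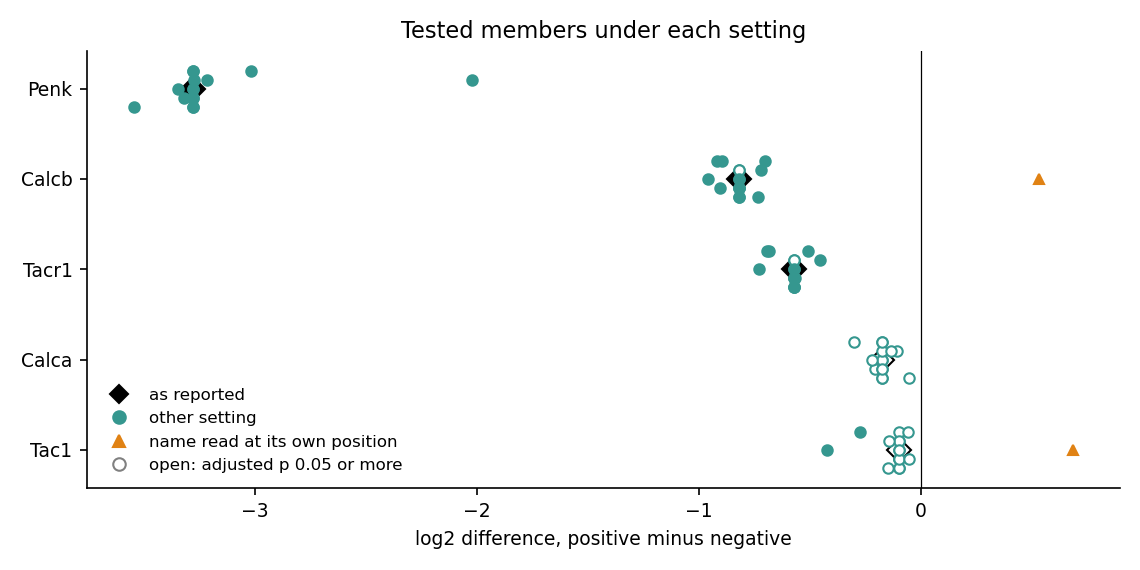
Log2 difference (x, positive minus negative) of the 5 tested members as reported (black diamonds) and under every other setting tried (teal circles), with open symbols where the adjusted p was 0.05 or more and orange triangles for late names read at their own array positions. Penk, Calcb and Tacr1 stay below 0 except for Calcb on the reading at its own position, 0.531.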

How the data were processed

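Total RNA of laser-captured cells was hybridised to 4 arrays. The table holds the deposited intensity of each probe, unlogged, with array medians of 0.9896 to 0.9916. The authors' scanner, background correction and scaling are not stated in the labels, and whether signals were saturated is unknown. Between 10 and 39 values per array were missing and 532 to 776 were zero or negative. Each such value was replaced by percentile 1 of its array's positive values, smaller positive values were kept, and log2 was taken with no further normalization. Probes with a mean log2 below the 40th percentile (intensity 0.456) were left out of the test, leaving 21070. Differences are log2, positive minus negative.

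Names came from the platform annotation, with symbols updated through RefSeq's rat gene table (GRCr8, names only): 1 symbol was given for 16677 probes (16649 found by gene ID), several for 163 and no symbol for 18286. The 7449 names of the early part were read at their own position and 7209 of 7218 of the late part 5 array positions later. For 565 of these, 5 table rows later is another feature, because the table leaves out some positions; the 11 member probes are the same either way. The 2010 names between were not used for members.

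Tests used limma 3.58.1 in R 4.3.3 (lmFit, eBayes with trend, two-sided), Benjamini-Hochberg adjustment over all tested probes and a threshold of 0.05. It was tested on simulated arrays. Figures were drawn with matplotlib 3.10.9. Members and lists were chosen with earlier results of these data known. Named were all members, Calb2, the 3 genes with the smallest p of each pathway and marker list, and the 3 genes most like a called member with a 2-fold difference. Ramp1, Ramp2, Tac4, Iapp, Pnoc, Npy, Nppc, Trpv1, P2rx3 and the efferent markers were named after their values were seen. So were Slc1a2, Slc1a3, Gja1, Snap25, Uchl1, Stmn2, Slc17a6 and Pvalb. The same holds for Dcn, Col1a1, Col1a2, Scg3, Scg5, Chga, Chgb and Grk5. Deviations from the group means were uncorrelated between arrays of the same number (r = 0.000316), so no effect shared by such arrays was seen. Whether they shared animals, a pool or a day is not in the labels and cannot be told from this value.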

Additional observations from a re-analysis of the deposited data

How the results depend on the processing

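With every name at its own array position, the reading the control grid goes against, 5 members were called higher, Calcb had a log2 difference of 0.531 and Tac1 of 0.684, and Calb2, the check of the titles, turned to -1.084. With no filter on dim probes 1 member, Oprk1, was called higher, below the dim limit. With the spread estimated probe by probe 1 member was lower, 7082 probes were called, and Calcb (-0.822) and Tacr1 (-0.571) lost their call. Tac1 was called lower with quantile (-0.273) and cyclic loess (-0.423) normalization. The cause was not tested. A stricter filter at percentile 60 removed Penk and Calca from the test. Leaving out 1 array at a time gave log2 differences of -3.546 to -3.018 for Penk, -0.921 to -0.723 for Calcb and -0.686 to -0.456 for Tacr1, all still called, -0.30 to -0.056 for Calca and -0.147 to -0.055 for Tac1, neither called, and 12382 to 12916 calls over all probes. The single array left in a group is there taken to have the spread of the full group. The replicate block gave 13711 calls and the same 3 members lower, and it changed no call of a tested member. Names read 5 table rows later or between the parts too, both chosen after the data were seen, left the counts of members at 3 lower and 0 higher. List counts moved. With 5 table rows later Pnoc was tested and called lower, and 5 of 6 Schwann cell and satellite glia genes fell instead of 6. The astrocyte and oligodendrocyte lists then had 4 of 5 tested genes lower, and the blood and immune list had 2 higher. Under both readings the astrocyte median log2 difference moved from -3.01 to -0.60. Raising small positive values to the floor too, also chosen after the data were seen, changed no member's call, nor did the other settings (floor, missing values, pseudocount, prior).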

Other observations

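Several further neuropeptide precursor genes were at or below the dim limit in the libraries labelled positive and above it in those labelled negative. They were named after their values were seen. Nmu, the neuromedin U precursor gene, had the reverse order. It read 1.13 and 0.991 in the libraries labelled positive and 0.374 and 0.354, below the limit, in those labelled negative. Most other listed neuropeptide genes that did not pass the filter were dim on every array. The share of all probes with either pattern was not counted. Gal, the galanin precursor gene, is read between the parts, where the control grid gives its position but the reading was chosen after the data were seen. It had 0.324 and 0.423 in the libraries labelled positive against 3.93 and 4.03 in those labelled negative. Npy, the neuropeptide Y precursor gene, had 0.129 and -0.0520 against 0.971 and 1.10, and Pnoc, the nociceptin precursor gene, 0.239 and 0.127 against 0.971 and 0.778. Neither Npy nor Pnoc passed the filter on dim probes, so they are given by level, and Pnoc has another feature if read 5 table rows later. Read in the same way between the parts, Cpe, the carboxypeptidase that finishes the processing of enkephalin and other peptides, had 383 and 411 against 297 and 343.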
